A study of Mus musculus with 2 samples.

Results

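Of the 32285 genes listed in the matrices, 10 genes of lipid handling were followed by single-cell RNA sequencing in cultured adipocyte precursors of neonatal mice. They were chosen by name for their part in fatty acid uptake, synthesis and storage, by a rule that uses no measured value. Lpl, Cd36, Fabp4 and Fabp5 stand for uptake and binding, Acsl1 for activation, Fasn, Scd1 and Scd2 for synthesis and desaturation, Plin2 for storage, and Adipoq for the secreted product of mature fat cells.

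The cells were the stromal vascular fraction of subcutaneous white and of interscapular brown adipose tissue from male and female C57/BL6J pups, for which the labels give no genetic change and no treatment. The study's methods give the age as P1. The sample titles carry P0 after the name of the cells, without saying that it is the age of the pups. The 4 days to confluency are those of the labels and of the study's methods, while its results section gives another time in culture. Cells that had not attached were washed away, the others grew to confluency in 4 days in medium with serum, with no differentiation cocktail named, and each depot was 1 library made from a pool of 4 pups. Transcripts were counted by the authors as unique molecular identifiers (UMIs) on the 10x 3′ platform. With no second library for either depot no test between conditions could be made, and all intervals given are 95% intervals that cover counting error alone.

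Fatty acids reach a fat cell mainly through lipoprotein lipase (Lpl), which frees them from circulating triglyceride, and the scavenger receptor CD36, which takes them across the membrane. Inside, the small binding proteins FABP4 and FABP5 carry them through the cytosol, and long-chain acyl-CoA synthetase 1 (Acsl1) couples them to coenzyme A. Fatty acid synthase (Fasn) makes palmitate anew, the stearoyl-CoA desaturases Scd1 and Scd2 introduce a double bond, and perilipin 2 (Plin2) coats the droplets in which the triglyceride ends. These genes come on in order as a preadipocyte turns into an adipocyte: Lpl and Fabp4 are known as early genes, and Adipoq, which encodes the hormone adiponectin, as a late one. Macrophages share part of the set, CD36, FABP4, FABP5, PLIN2 and LPL among them.

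In white 5261 cells had been captured at a median depth of 26239 UMIs, in brown 7009 at 26411. Of these, 4407 and 6137 passed the quality limits that the study set. Values by cell type and cluster rest on the 2033 white and 2056 brown cells for which the source data give the authors' labels. Among them 14 white and 27 brown cells were labelled myeloid, 20 and 22 glial and 8 brown cells myoblasts, and all others were precursor cells in 7 clusters per depot, of 15 to 674 cells in white and 115 to 581 in brown. The 2 libraries had 9 cell barcodes in common among captured cells and 8 among kept cells. Levels are given as CPM, the UMIs of a gene per 1000000 UMIs of all genes in a group of cells.

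The genes lie on 7 chromosomes in GRCm38. In the GENCODE M21 annotation Fabp5 (ENSMUSG00000027533) spans chr3:10012548-10016607 and Fabp4 (ENSMUSG00000062515) chr3:10204088-10208576. Scd2 (ENSMUSG00000025203) at chr19:44293674-44306864 and Scd1 (ENSMUSG00000037071) at chr19:44394455-44407879 are neighbours in the same way. Lpl (ENSMUSG00000015568, chr8:68880491-68907448) and Acsl1 (ENSMUSG00000018796, chr8:46471037-46536051) share chromosome 8. Cd36 (ENSMUSG00000002944) lies at chr5:17781690-17888801, Plin2 (ENSMUSG00000028494) at chr4:86648386-86670060, Fasn (ENSMUSG00000025153) at chr11:120805846-120824547 and Adipoq (ENSMUSG00000022878) at chr16:23146536-23158028. Of the 50-base words in the last 500 bases of their transcripts, 14% of those of Scd1 occurred also in other genes, Scd3 and Scd2 foremost, against 5.95% for Fabp5 and 3.93% for Plin2 (each with pseudogenes) and 0% for the other 7. Fabp4 and Fabp5 therefore shared no such word with each other, and UMIs of Scd1 are the least certain of the set.

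RefSeq promoter windows were at hand for 5 of the 10 genes (Acsl1, Adipoq, Cd36, Fasn and Plin2). The 250 bases before the start are shown for Adipoq, which was nearly silent in precursor cells, and for Fasn, which most of them expressed. Capitals mark CCAAT boxes (CCAAT on either strand), and no GC box (GGGCGG), E box (CACGTG) or TATA box (TATAAA) was found in either window on either strand.

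Adipoq, GRCm38.p6 chr16:23146286-23146535, plus strand: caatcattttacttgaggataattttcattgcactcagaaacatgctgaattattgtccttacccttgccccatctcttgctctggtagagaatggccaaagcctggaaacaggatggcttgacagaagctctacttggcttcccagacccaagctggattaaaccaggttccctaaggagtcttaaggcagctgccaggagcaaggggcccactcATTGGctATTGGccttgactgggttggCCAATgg
Fasn, GRCm38.p6 chr11:120824548-120824797, minus strand: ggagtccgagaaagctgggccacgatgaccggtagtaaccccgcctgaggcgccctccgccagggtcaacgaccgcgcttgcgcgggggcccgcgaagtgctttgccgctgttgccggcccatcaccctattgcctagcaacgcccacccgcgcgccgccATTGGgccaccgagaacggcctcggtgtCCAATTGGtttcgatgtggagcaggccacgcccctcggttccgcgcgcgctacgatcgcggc

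Both windows held 3 CCAAT boxes, those of Adipoq all near its start and a pair in Fasn overlapping on opposite strands, and 33.8% of all 32536 windows of this length held at least 1. They differed in CpG content: Adipoq had 0 CpG dinucleotides and Fasn 33, where 7.80% and 96.4% of all windows had as many or fewer.

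The precursor cells of both depots expressed most of the set before any adipocyte stage. Fabp5 was found in 98.8% of white and 98.3% of brown precursor cells, Scd2 in 99.5% and 99.2%, and Lpl in 93.6% and 91.9%. Plin2, Scd1 and Fasn were each found in 74.3% to 82.2% of the cells of a depot, Fabp4 in 42% of white and 58.6% of brown cells (26.4% and 42% with each cell thinned to 10000 UMIs), and Acsl1 in 22.5% and 23.3%. Cd36 and Adipoq stood apart from the other 8, with at least 1 UMI in 0.55% and 0.2% of white and 1.8% and 0.5% of brown cells.

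Glial cells, which should lack adipocyte genes, gave the level against which these shares can be read. In the 20 white glial cells, with a median of 22607 UMIs against 27204 in precursor cells, Lpl and Fabp4 had 1 UMI each, in 5% of the cells, or 2.11 CPM (0.0535 to 11.8). Fabp5 stood there at 464 CPM (405 to 530), Plin2 at 106 CPM (78.4 to 139), Scd2 at 188 CPM, Fasn at 52.8 CPM and Scd1 at 46.4 CPM. Lpl and Fabp4 were thus the only 2 of the 8 well-measured genes that were close to 0 in white glial cells, whereas Fabp5, Plin2, Fasn and the desaturases were detected in them at levels of the same order as in precursors. In brown glial cells Fabp4 read 292 CPM, but 1 cell of the 22 carried 129 of its 132 UMIs, and the other 21 cells gave 7.22 CPM (1.49 to 21.1). Lpl gave 16.9 CPM (6.77 to 34.7) in those 21 cells.

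The label of early adipocytes was checked against 8 markers of the mature cell (Plin1, Cidec, Adipoq, Lep, Retn, Cfd, Lipe and Ucp1). Summed over the list they reached 3.29 CPM in white and 4.46 CPM in brown precursor cells, and from 1.77 to 5.88 CPM in the 14 precursor clusters. The precursor list (Pdgfra, Pdgfrb, Dlk1, Dcn and Col1a1) summed to 6192 and 5712 CPM in the same cells. None of the 14 clusters was thus one of mature adipocytes by these genes, and the precursor list stood at 4493 to 6944 CPM in 13 of them. In the 15 cells named differentiating wFAPLs it stood lower, at 2738 CPM.

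Adipoq, in a mature fat cell among the most abundant transcripts, was found in 9 of 5261 captured white cells and in 53 of 7009 captured brown cells. Its 71 white and 245 brown UMIs were concentrated in few cells, with up to 32 in a white and 44 in a brown cell. Of the cells that passed the limits, 6 white and 37 brown had an Adipoq UMI, which left 56 of the 71 white UMIs and 158 of the 245 brown UMIs in cells that the limits had removed.

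Counts of 5 or more Adipoq UMIs were found in 16 cells, 4 white and 12 brown, a limit chosen after these values were seen. The limits on cell quality removed 11 of the 16, 3 white and 8 brown. All 11 were above the upper limit of 5% mitochondrial UMIs, with 5.26% to 17.4%, and 4 of them also had too few genes. This limit was exceeded by 168 of all 854 removed white cells and 155 of all 872 removed brown cells.

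The removed cells carried nearly the whole lipid set at high level. In the 3 white cells Scd1 gave 383, 437 and 611 UMIs, or 25649 CPM together (24337 to 27013), 348-fold the level in the other 851 removed cells. Fabp4 gave 274, 351 and 535 UMIs there, or 20792 CPM, 258-fold the others. Those 3 cells held 42.4% of all Fabp4 UMIs and 49.8% of all Scd1 UMIs of the 854 removed white cells, and 0.285% of their UMIs.

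In the 8 removed brown cells Fabp4 ran from 19 to 1247 UMIs per cell with a median of 364, and Scd1 from 5 to 609 with a median of 256. As levels these were 25167 CPM for Fabp4 and 13774 CPM for Scd1, 150-fold and 189-fold those of the other 864 removed cells. The 8 cells were not alike: Scd1 exceeded Scd2 in 7 of them, while the cell with the lowest mitochondrial share had 5 UMIs of Scd1, 9 of Scd2 and 205 of the precursor list.

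Acsl1, a low gene in all precursor clusters, reached 1040 CPM in the 3 white and 1159 CPM in the 8 brown cells, 86.9-fold and 101-fold the other removed cells. Fasn stood at 3692 and 1449 CPM (51.4-fold and 17.5-fold), Cd36 at 717 and 662 CPM (46-fold and 60.2-fold) and Lpl at 3262 and 4416 CPM (9.32-fold and 13.1-fold). In brown, Fasn had a UMI in 5 of the 8 cells, and a single cell held 112 of its 210 UMIs. For Fabp5 (5.49-fold and 5.68-fold) and Plin2 (9.21-fold and 3.93-fold) the ratios were smaller. Scd2 hardly differed, at 735 CPM against 427 CPM in white and 490 CPM against 442 CPM in brown, or 1.72-fold and 1.11-fold. Within each of the 2 paralog pairs, Scd1 with Scd2 and Fabp4 with Fabp5, the first was thus over 100-fold higher in these cells than in the other removed cells and the second less than 6-fold.

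Of the other mature cell markers, which had not entered the choice of these cells, some were high in them and others were not. Cfd, which encodes the secreted protease adipsin, had 99 UMIs or more in 9 of the 11 removed cells. Retn, the gene of the hormone resistin, had up to 81 UMIs in a white and 157 in a brown cell, but only 0 to 2 in several. Lep had at most 1 UMI in any removed cell. Among all removed cells, Ucp1 had a UMI in 1 white and 2 brown ones. Pdgfra, the receptor that marks precursors, was at 0 in 10 of the 11, and the whole precursor list gave 0 or 1 UMI in 8. Myeloid and endothelial markers were at 0 in all 11, and the glial list gave at most 2 UMIs in any of them.

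The 5 kept cells with 5 or more Adipoq UMIs, summed by library, stood lower than the removed cells in Fabp4 and Scd1. Fabp4 was at 650 CPM in white and 3229 CPM in brown, and Scd1 at 511 and 3042 CPM. The white one had 14 UMIs of Fabp4 and 11 of Scd1. In brown, Fabp4 ran from 15 to 239 UMIs and Scd1 from 1 to 293. The highest of these, a cell of 52831 UMIs to which the label bAPC 1 was carried over, had 36 UMIs of Cd36, 28 of Plin1 and 20 of Lipe beside 28 of Adipoq. Its counts of Cd36, Plin1 and Lipe were above those of every removed cell, at a greater depth than any of them. Another kept cell was the brown cell labelled glial described above, with 112 UMIs of Scd1, 111 of Cfd and 6 of Adipoq beside 4 of Sox10, a glial gene, and 165 of the precursor list.

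**Figure D1:**
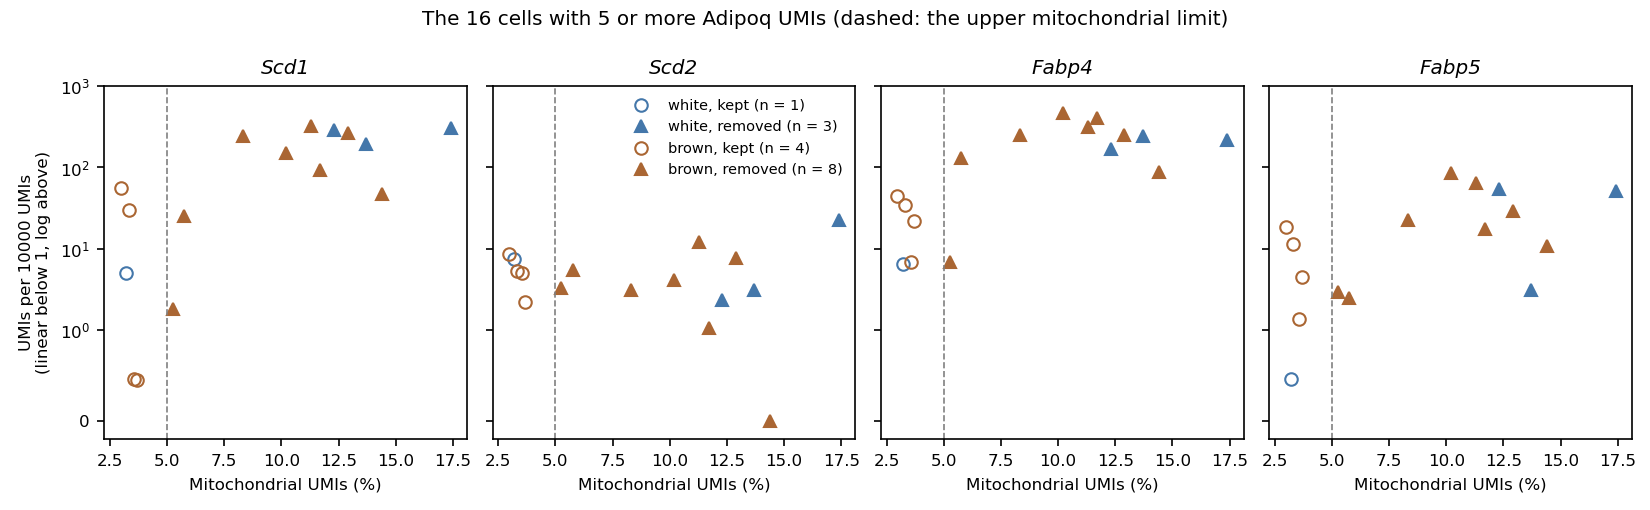
Each point is 1 of the 16 captured cells with 5 or more Adipoq UMIs, with its mitochondrial share (x axis, percent) and its UMIs of Scd1, Scd2, Fabp4 or Fabp5 per 10000 UMIs (y axis, linear below 1 and logarithmic above). Filled triangles are the 11 cells that the quality limits removed, all right of the dashed 5% line and most of them high in Scd1 and Fabp4 but not in Scd2, and open circles are the 5 that were kept.

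Among the precursor clusters the 10 genes did not move as 1 set. Lpl, Fabp4 and Plin2 were lower in the FAPLs, clusters named for their likeness to fibro-adipogenic progenitors (wFAPLs and bFAPLs), than in the committed adipocyte precursors (wCAPs and bCAPs). Fabp5 ran the other way, Fasn, Scd1 and Scd2 varied less, and Acsl1 was level within its counting error. The clusters were made by the authors from these same counts, so their levels are given as a description.

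Lpl was highest in the committed precursors of both depots: wCAPs had 589 CPM (578 to 600), bCAPs 610.5 CPM (594 to 628). The next clusters, wAPC 2 at 379 CPM and bAPC 1 at 366 CPM, lay clearly below. At the low end stood wFAPLs with 187 CPM and the 15 differentiating wFAPLs with 161 CPM (whose intervals overlapped) in white, and bAPC 5 with 108 CPM in brown. The order spanned 3.65-fold in white and 5.66-fold in brown.

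Fabp4 varied most. In white it ran from 10.95 CPM in wAPC 2 over 25.3 in wAPC 4, 37.2 in wFAPLs, 50.3 in wAPC 3, 73.3 in wAPC 1 and 85.9 in wCAPs to 1006 CPM (918 to 1101) in differentiating wFAPLs. The span of 91.9-fold rests on the 15 cells of this last cluster. In brown it ran from 24.8 CPM in bAPC 5 to 302 CPM in bCAPs, or 12.2-fold, and bAPC 3, bFAPLs and bAPC 1 between them (92.4, 91.4 and 83.3 CPM) differed little. Its UMIs were also uneven between cells. With each cell thinned to 10000 UMIs, the top 1% of white precursor cells (44 cells, by labels carried over to all kept cells) held 20.7% of all Fabp4 UMIs, against 6.03% of those of Fabp5, 7.53% of those of Lpl and 3.61% of those of Scd2, genes of higher mean. Acsl1, with at most 3 UMIs in a cell, came to 20.2%, and in brown Fabp4 came to 13.9%. The variance over the mean in white was 6.04 for Lpl, 5.23 for Fabp4 and 4.36 for Fabp5, and 1.10 to 1.75 for Plin2, Acsl1 and the genes of synthesis.

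Fabp4 and Fabp5 peaked in the differentiating wFAPLs, and no other member did. The study named this cluster differentiating because Pparg and Fabp4 were high in it, so their direction was set by the name. Fabp4 was found in 11 of the 15 cells, with a median of 23 and at most 112 UMIs, and Fabp5 in all 15 with 6 to 146 UMIs. Against wFAPLs, Fabp4 was 27-fold (log2 4.76, 4.54 to 4.98) and Fabp5 3.42-fold higher (log2 1.78, 1.67 to 1.88). The 3 cells with the most UMIs held 52.1% of those of Fabp4 and 40.8% of those of Fabp5, and without them the levels were 647 and 1646 CPM, 17.4-fold and 2.71-fold higher. Adipoq, Cd36 and Plin1 had no UMI in these cells, and Lpl (161 CPM), Plin2 (39.8 CPM), Scd1 (37.7 CPM) and Fasn (29.3 CPM) stood at or near the bottom of the order. Markers of mural cells, the contractile cells of vessel walls (Rgs5, Abcc9, Kcnj8, Cspg4, Myh11 and Actg2), summed to 6211 CPM against 613 CPM in wFAPLs and 78.7 to 190 CPM in the other white clusters, Myh11 alone to 2522 CPM, and Pdgfra stood at 6.29 CPM against 82.7 CPM in wFAPLs. The part of these mural genes in the Fabp4 level was not tested.

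Across all 8 members measured here, 2 were past 2-fold higher in differentiating wFAPLs than in wFAPLs and 0 lower, where 8.04% of the 9481 genes at 10 CPM in either were higher and 14.3% lower by as much. With median-of-ratios scaling these shares were 9.89% and 11.3%. The 2 members were Fabp5 and Fabp4, and the direction of Fabp4, as of Pparg below, was set by the cluster's name. Of 37 further lipid genes at this level, from a list of 58, 5 were higher and 12 lower, with a median log2 ratio of -0.39 against -0.19 for all genes. Pparg, the master regulator of fat cell formation (77.6 against 9.48 CPM), Pnpla2, which encodes the first lipase of stored fat (39.8 against 9.06 CPM), and Dbi, the acyl-CoA binding protein (1216 against 444 CPM), led the list. G0s2, an inhibitor of that lipase, Gpam, the first enzyme of triglyceride assembly, and Fabp3 were lowest, on 3, 1 and 3 UMIs.

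Fabp5 had another order. After differentiating wFAPLs (2082 CPM) it was highest in wAPC 1 (711 CPM) and wFAPLs (608 CPM) and lowest in wAPC 4 and wCAPs (361 and 357 CPM, with overlapping intervals). In brown, bFAPLs (670 CPM, 651 to 688) and bAPC 4 (663 CPM) led, and bAPC 1 and bCAPs (425 and 419 CPM) came last. Over the 14 clusters the Pearson correlation of log2(CPM + 1) was -0.72 between Fabp5 and Plin2 and -0.53 between Fabp5 and Lpl, and -0.52 and -0.43 without the 15 differentiating wFAPLs. Fabp5 was as far from Fasn (-0.74) and Scd2 (-0.62) over all 14 clusters, which came to -0.18 and -0.20 without those cells, when Acsl1 was the farthest (-0.59). Acsl1 was level within its counting error, so its correlation carries little weight. These points share their library and the cycle state of their cells.

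Cell cycle phase went with the same genes. In white precursor cells Fabp5 was at 433 CPM in G1 and at 688 CPM in S and 653 CPM in G2/M, in brown at 449, 600 and 633 CPM. Lpl went from 451 CPM in G1 to 313 in S and 327 in G2/M in white, and from 386 to 324 and 320 CPM in brown. Plin2 was also highest in G1, at 90.5 and 97.5 CPM against 61.2 and 73 CPM in S. Fabp4 differed little, from 66.6 CPM in G1 to 74.3 in S in white and from 126 to 136 CPM in brown.

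Plin2 had its lowest level in brown in bFAPLs (47.8 CPM) and in white in differentiating wFAPLs and wFAPLs (39.8 and 48.1 CPM). The top was shared by wCAPs and wAPC 3 (104 and 99.3 CPM) and by bAPC 2 and bAPC 5 (115 and 98.8 CPM), neighbours whose intervals overlapped. The 3 genes of synthesis spanned 1.47-fold to 1.69-fold in brown and 1.75-fold to 2.54-fold in white from the highest to the lowest cluster. The lowest in white was the cluster of 15 differentiating wFAPLs, on 14 UMIs of Fasn, 18 of Scd1 and 124 of Scd2. Its intervals overlapped those of the next cluster for all 3, so the wider white span rests on few counts. They were highest in wAPC 2 and in bCAPs, and in brown all 3 were lowest in bFAPLs, with 48.8 CPM for Fasn, 55.3 for Scd1 and 333 for Scd2. At the top, intervals overlapped for Fasn between wAPC 2 and wAPC 1 and between bCAPs and bAPC 5. Those of Scd1 overlapped in brown between bCAPs and bAPC 4, and at the bottom between bFAPLs and bAPC 5. Acsl1 lay between 8.36 and 11.8 CPM in all 14 clusters and each neighbour in its order overlapped the next.

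**Figure D2:**
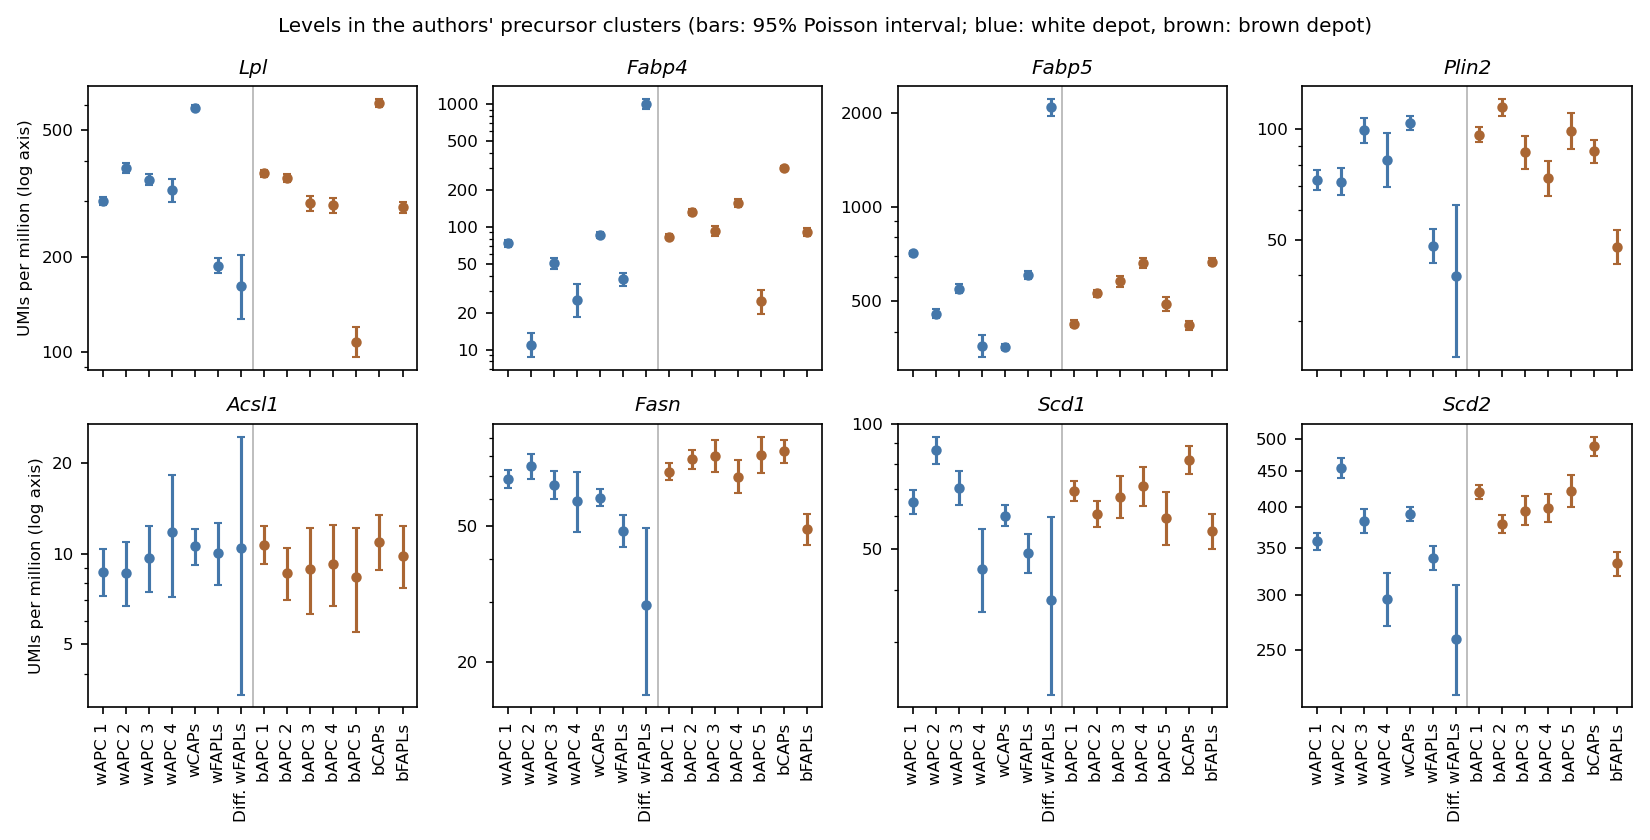
Points give the level of 8 genes in the authors' 7 white (blue) and 7 brown (brown) precursor clusters in CPM on a log axis that differs between panels, with exact 95% Poisson intervals. Lpl peaks in wCAPs and bCAPs (589 and 610.5), Fabp4 in differentiating wFAPLs (1006) and bCAPs (302), and Acsl1 is level.

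The profiles of Scd1 and Scd2 over the 14 clusters were the most alike of all pairs of members (r = 0.93, 0.88 without differentiating wFAPLs), and Scd2 was also the gene most like Scd1 among 10229 genes at 10 CPM in some cluster. Without differentiating wFAPLs, Met (r = 0.88) was ahead of it. Scd2 was closest to Acly, the enzyme that supplies acetyl-CoA for fat synthesis (r = 0.93), and Fasn to Tkfc (r = 0.96), a kinase of sugar metabolism, and Bzw2 (r = 0.95), followed by Fads1, a fatty acid desaturase (r = 0.94). Fabp5 was closest to Tmsb4x, which encodes the actin-binding thymosin beta 4 (r = 0.97), Fabp4 to the secreted protease gene Htra1 (r = 0.91), Lpl to Wiz (r = 0.87), Plin2 to Rpl27a (r = 0.88) and Acsl1 to Sfmbt1 (r = 0.85). For Cd36 and Adipoq, S1pr1 (r = 0.78) and Wdr72 (r = 0.83) came first, from levels under 3 CPM in every cluster. The profile of Acsl1 was level within its counting error, so its closest gene carries little weight.

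Committed precursors were set against FAPLs within each depot. The study named the CAPs for high Pparg and Fabp4, so the direction of these 2 genes was set by the names. In white, 3 of the 8 members at 10 CPM were past 2-fold higher in the 674 wCAPs than in the 256 wFAPLs and 0 lower, where 1.60% of 9199 genes were higher and 2.25% lower. Lpl was 3.14-fold higher (589 against 187 CPM), Fabp4 2.31-fold (85.9 against 37.2 CPM) and Plin2 2.16-fold (104 against 48.1 CPM, log2 1.11, 0.94 to 1.28). With cells thinned to 10000 UMIs the log2 ratio of Plin2 was 0.86, within 2-fold. Fabp5 was 1.7-fold lower (357 against 608 CPM). Fasn, Scd1 and Scd2 were 1.16-fold to 1.25-fold higher and Acsl1 differed by 1.05-fold, within its interval.

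In brown, 2 of the 8 members were past 2-fold higher in the 296 bCAPs than in the 279 bFAPLs and 0 lower, where 2.01% of 9148 genes were higher and 1.86% lower. Fabp4 was 3.30-fold higher (302 against 91.4 CPM) and Lpl 2.14-fold (610.5 against 286 CPM). Plin2 was 1.82-fold higher (86.9 against 47.8 CPM), and past 2-fold (log2 1.03) in G1 cells alone. Fasn was 1.69-fold, Scd1 1.49-fold and Scd2 1.47-fold higher in bCAPs, and Fabp5 1.60-fold lower (419 against 670 CPM). The direction of all 8 was the same in both depots, with the interval of Acsl1 across 0 in both. In brown Cd36 had 23 UMIs in bCAPs and 0 in bFAPLs, at least 7.04-fold higher against 3 UMIs over bFAPLs, and Adipoq 9 and 0 UMIs, at least 2.76-fold higher, with 5 of the 9 in 1 cell. In white Cd36 ran the other way on 2 UMIs in wCAPs and 3 in wFAPLs (log2 -2.02, -5.60 to 1.11), and Adipoq had 4 and 0 UMIs.

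The wider lipid list followed in part. Of 35 further genes at 10 CPM in white, 3 were past 2-fold higher in wCAPs and 0 lower, with a median log2 ratio of 0.13 against 0.01 for all genes. They were Pparg (92.5 against 9.48 CPM), Lpin1, a phosphatase of triglyceride assembly (13.3 against 6.14 CPM), and Gpam (26.6 against 13 CPM). The direction of Pparg, here and in brown, was set by the cluster names. Fabp3, Cebpd and Bscl2 were lowest, at log2 ratios of -0.60, -0.59 and -0.48. In brown, 3 of 38 were higher and 1 lower, with a median of 0.18 against 0.04. Rbp4, a retinol carrier secreted by fat (10.4 against 1.72 CPM), Pparg (92.8 against 17 CPM) and Elovl6, which lengthens palmitate (57.9 against 28.3 CPM), were highest, and Mgll, which frees the last fatty acid of a triglyceride (2.8 against 14.6 CPM), was lowest, before Vldlr (log2 -0.97) and Fabp3 (log2 -0.95).

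Markers of other cell types differed along with these levels. The mural list summed to 613 CPM in wFAPLs against 78.7 CPM in wCAPs, and to 730 CPM in bFAPLs against 170 CPM in bCAPs. The myeloid list summed to 50.6 CPM in wFAPLs against 7.68 CPM in wCAPs, where white myeloid cells themselves had 16362 CPM, and to 16.6 and 14.4 CPM in bFAPLs and bCAPs. Their part in the ratios of the members was not tested. Cells in G1 alone, where Fabp5 stood at 290 CPM in wCAPs and 502 CPM in wFAPLs, and at 355 CPM in bCAPs and 569 CPM in bFAPLs, kept its direction.

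**Figure D3:**
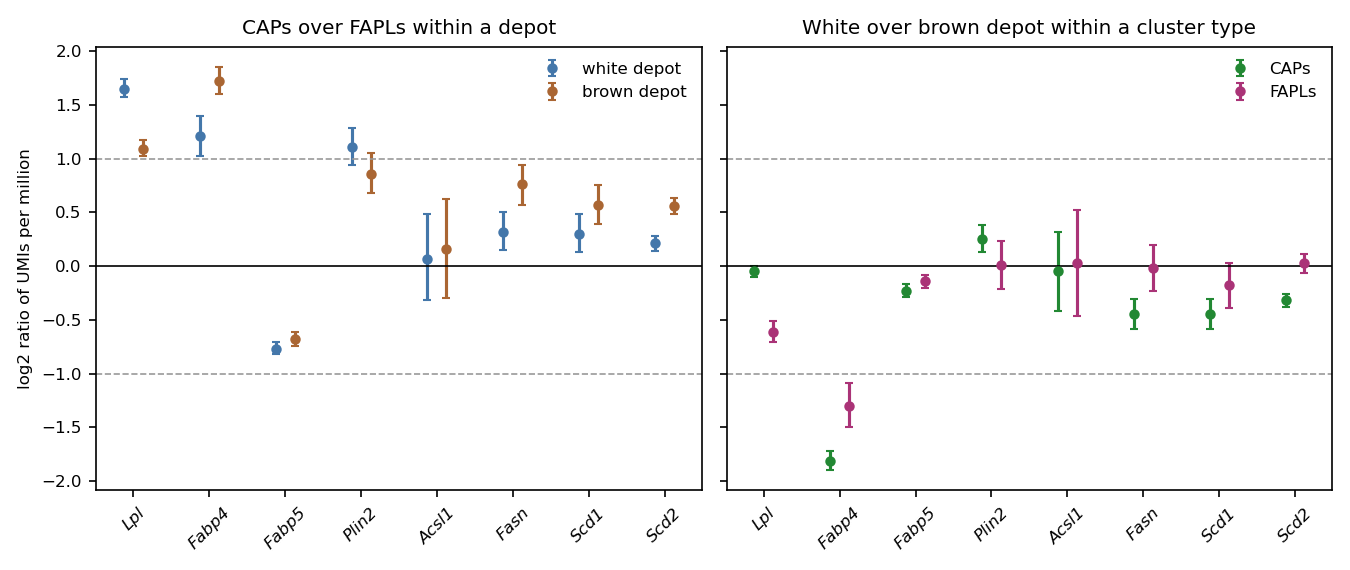
Points give log2 ratios of CPM for 8 genes with 95% conditional binomial intervals for counting error, for CAPs over FAPLs in each depot (left) and for white over brown in each cluster type (right), with dashed lines at 2-fold. Fabp5 alone lies below 0 on the left, and Fabp4 alone lies past 2-fold on the right.

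Of the members at 10 CPM, Fabp4 differed most between depots. None of the 7 members at 10 CPM was past 2-fold between all white and all brown precursor cells, where 1.07% of 9041 genes were higher in white and 0.752% lower. White cells had 68.3 CPM of Fabp4 (66.2 to 70.5) and brown cells 129 CPM (126 to 132), 1.89-fold lower in white. The others differed by 1.15-fold or less: Fabp5 stood at 527 and 513 CPM, Lpl at 399 and 362, Scd2 at 380 and 407, Plin2 at 83 and 90.1, Fasn at 63.1 and 72.6, and Scd1 at 64.1 and 66.9 CPM. Acsl1, just under 10 CPM, was at 9.71 and 9.80 CPM.

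Cd36 and Adipoq were lower in white on very few UMIs, 11 against 73 and 5 against 24. The log2 ratios were -2.72 (-3.78 to -1.80) and -2.25 (-4.00 to -0.83), below the level at which genes were counted. A single brown cell, of bAPC 1, held 16 of the 73 UMIs of Cd36 and 11 of the 24 of Adipoq, and without it the log2 ratios were -2.36 (-3.44 to -1.42) and -1.37 (-3.21 to 0.21). Of 35 further lipid genes 0 were past 2-fold in either direction, with a median log2 ratio of 0.03 against 0.04 for all. Elovl6 (74.9 against 45.4 CPM), Acsl4 (67.1 against 49.4 CPM) and Gpam (19.7 against 14.6 CPM) were highest in white, and Cebpa, a transcription factor of adipocytes (26.9 against 37.9 CPM), Dgat1 and Agpat2 lowest.

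Between clusters of the same name Fabp4 crossed the 2-fold line. It was 3.52-fold lower in wCAPs than in bCAPs (85.9 against 302 CPM, log2 -1.81, -1.90 to -1.72) and 2.45-fold lower in wFAPLs than in bFAPLs (37.2 against 91.4 CPM, log2 -1.30, -1.5 to -1.09). Fabp4 was the 1 of 8 members past 2-fold in either comparison, and 0 were higher. The FAPL clusters were not drawn alike in the 2 depots. In white, 15 cells with 1006 CPM of Fabp4 (480 UMIs, against 267 in wFAPLs) formed the separate cluster of differentiating wFAPLs. Brown had no such cluster, and a FAPL ratio with these white cells added was not computed. The background was 2.18% of 9235 genes higher and 2.14% lower for CAPs, and 1.04% of 9136 higher and 0.646% lower for FAPLs. Lpl was nearly the same in both kinds of CAPs (589 and 610.5 CPM) but 1.53-fold lower in wFAPLs than in bFAPLs (187 against 286 CPM), and Fasn, Scd1 and Scd2 were 1.25-fold to 1.37-fold lower in wCAPs than in bCAPs and within 1.13-fold in FAPLs.

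Of the further lipid genes 1 of 37 was past 2-fold between CAPs and 1 of 36 between FAPLs, Rbp4 (3.30 against 10.4 CPM) and Mgll (5.44 against 14.6 CPM), both lower in white. Their medians were -0.02 and 0.02, against 0.01 and 0.03 for all genes. Highest in wCAPs were Vldlr (45.1 against 23.4 CPM), Cebpb and Gpam, and next lowest Cebpa (34.7 against 61.2 CPM) and Dbi (463 against 769 CPM). Highest in wFAPLs were Elovl6 (50.1 against 28.3 CPM), Acaca and Cebpd, and next lowest Pparg (9.48 against 17 CPM) and Cebpa. Each depot was 1 library, so depot and library cannot be told apart.

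Myeloid cells held the set in another proportion. Ptprc, Csf1r, Cd68 and C1qa, genes of leukocytes and macrophages, stood at 160, 214, 882 and 1565 CPM in white myeloid cells and at 199, 261, 748 and 1625 CPM in brown. Fabp5 reached 5299 CPM (5073 to 5534) in the 14 white and 5291 CPM (5129 to 5456) in the 27 brown cells, 10.1-fold and 10.3-fold the precursor level, with UMIs in every cell.

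Cd36 drew the sharpest line between the 2 kinds of cell. It had a UMI in all 14 white and all 27 brown myeloid cells, at 1037 CPM (938 to 1143) and 718 CPM (659.5 to 781), against 0.192 and 1.26 CPM in precursor cells. The log2 ratios were 12.40 and 9.15. Plin2 was at 707 and 532 CPM, 8.51-fold and 5.90-fold the precursor level, and Acsl1, on 12 and 30 UMIs, at 30.9 and 39.1 CPM, 3.19-fold and 3.99-fold.

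Fabp4 was higher in myeloid cells as well, but unevenly: 526 CPM (456 to 603) in white, 7.70-fold the precursor level, and 227 CPM (194 to 263) in brown, 1.76-fold, where the precursor level was itself higher. With labels carried over, the 29 white myeloid cells stood at 337 CPM (299 to 379), 4.99-fold the precursor level. It was found in 64.3% and 66.7% of the myeloid cells, with up to 70 and 41 UMIs in a cell. Lpl was at 235 CPM in both, 1.7-fold and 1.54-fold below precursors. The desaturases were lower, Scd1 at 20.6 and 9.12 CPM (3.11-fold and 7.33-fold lower) on 8 and 7 UMIs and Scd2 at 160 and 167 CPM (2.38-fold and 2.44-fold lower), and Fasn stood at 59.3 and 48.2 CPM, within 2-fold. Thinned to 10000 UMIs per cell, Scd2 in white was within 2-fold (log2 -0.95), and so was Scd1 in white (log2 -0.48) with G1 cells alone, which left 4 myeloid cells. In brown the 4 myeloid cells in G1 had Lpl and Fasn slightly above precursors (log2 0.17 and 0.20) and Scd1 at a log2 ratio of -1.36. The log2 ratio of Cd36 in white lay between 11.56 and 14.19 over the alternatives. Adipoq had 0 UMIs, which allows up to 7.74 CPM in white and 3.91 CPM in brown.

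In all, 5 of 9 members were past 2-fold higher and 2 lower in white myeloid cells, and 4 and 2 in brown. Of all genes 20.1% were higher and 19.4% lower in white (10117 genes), and 17.9% and 19.7% in brown (9866 genes). Of 38 further lipid genes in white 12 were higher and 12 lower (median log2 0.05 against 0.04), and of 39 in brown 6 and 10 (median -0.12 against 0.00). The same 3 genes led in both, Slc27a1, a fatty acid transporter (124 and 111 CPM against 6.26 and 5.43), Lipa, the lysosomal lipase (562 and 400.2 CPM against 47.3 and 50.3), and Nr1h3, the sterol-sensing receptor LXR alpha, on 4 and 20 UMIs. Lowest were Vldlr, G0s2 and Me1 in white and Vldlr, Elovl6 and Gpam in brown, each on 6 UMIs or fewer.

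**Figure D4:**
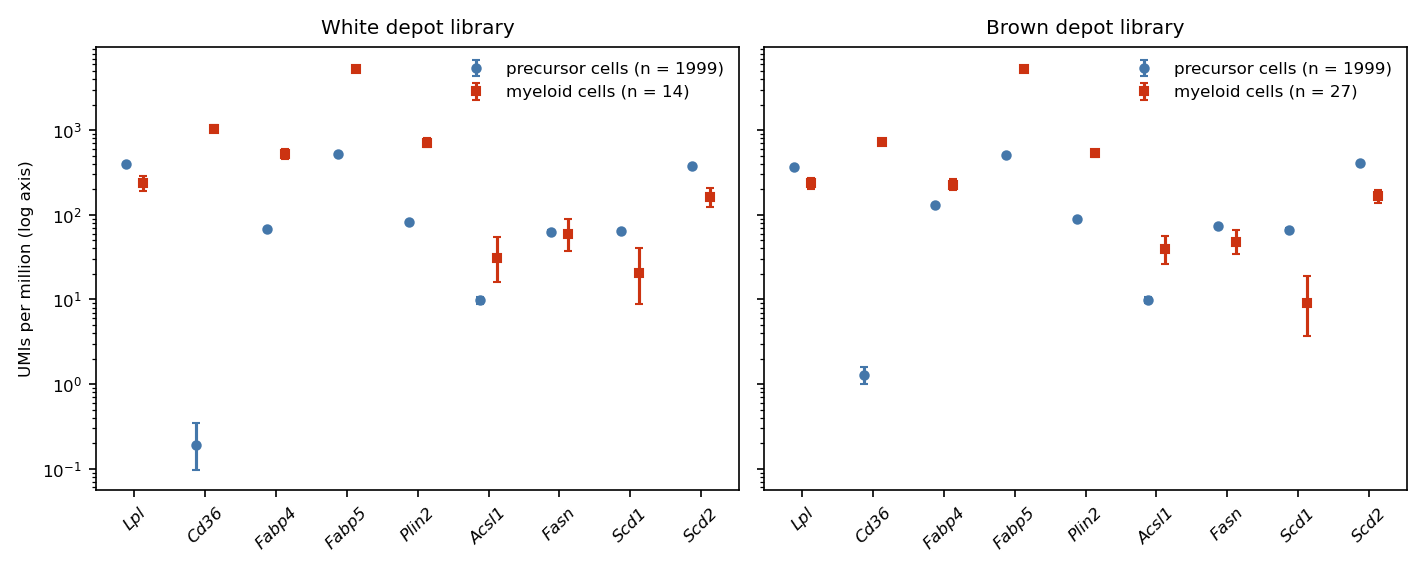
Points give the level of 9 genes in precursor cells (blue circles) and myeloid cells (red squares) of each library in CPM on a log axis, with exact 95% Poisson intervals. Cd36 separates the 2 kinds of cell most (1037 against 0.192 in white), Fabp5, Plin2 and Acsl1 are higher in myeloid cells in both libraries, and Scd1 and Scd2 are lower.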

How the data were processed

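Cells of 1 white and 1 brown library were sequenced by 10x 3′ chemistry. The authors deposited counts of UMIs per gene and cell, made with Cell Ranger 7.0.1 against mm10 per the submitters' processing notes, without normalization. Genes are as the files name them, and coordinates come from GENCODE M21 (GRCm38).

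As in the study's methods, cells with 3900 to 7700 genes (counting genes found in 3 or more captured cells), 1.7% to 5% mitochondrial UMIs and 6000 to 60000 UMIs were kept. The study's source data give cluster labels for a part of the precursor cells of each depot, and these were used. As an alternative they were carried over to all kept cells by 15 nearest neighbours on 10 components (5 neighbours on 20 components for cell types), which returned 90.6% of white and 85.4% of brown cluster labels held out. Doublets were not called, and cycle phases used the gene lists of Seurat 5.3.0.

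Levels have exact Poisson intervals, shares Clopper-Pearson and ratios conditional binomial ones, at 95%, computed in Python 3.11.15 with scipy 1.17.1. A gene counted as past 2-fold only with 10 CPM or more in either side, and a count of 0 was set to 3 UMIs for a ratio. UMIs without replicate libraries give counting error alone, and no test between conditions was made. The genes named are the 10 members, the 3 highest and 3 lowest of the lipid list in each comparison, cell type markers that touch a result, and the genes closest to each member in profile. Alternatives were carried-over labels, cells thinned to 10000 UMIs, the mean over cells, median-of-ratios scaling, other level limits, G1 cells and no cell filter. The members and lists were chosen with earlier results of these data known. The ratios and intervals were also run on simulated Poisson counts with known changes. These counts lack the spread between cells of the real data, so the run cannot test for it.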

Additional observations from a re-analysis of the deposited data

Results flagged for a closer look

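Cells that the quality limits removed, and that entered none of the comparisons, carried lipid genes far above the rest. In the 3 removed white cells with 5 or more Adipoq UMIs the levels were 20792 CPM for Fabp4, 25649 for Scd1, 3334 for Fabp5, 3262 for Lpl, 3692 for Fasn, 1040 for Acsl1, and 716.9 each for Cd36 and Plin2. The 8 such brown cells gave 25167 CPM for Fabp4, 13774 for Scd1, 3271 for Fabp5, 4416 for Lpl, 1449 for Fasn, 1159 for Acsl1, 662.5 for Cd36 and 331.2 for Plin2. With all captured cells the 4 white and 12 brown cells of this kind supplied 10.4% and 12.7% of all Fabp4 UMIs and 13.1% and 15.2% of all Scd1 UMIs, on 0.0535% and 0.136% of all UMIs. Scd2 was not raised beyond 2-fold in them.

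One brown cell labelled glial stood out by 112 UMIs of Scd1, where the other 21 glial cells had 20 together. It had 37063 UMIs and 6840 genes. Whether 2 cells shared this droplet was not tested.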

How the results depend on the processing

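The count of members past 2-fold stayed within 1.5 times its value for 55 of 58 alternatives. It moved without a minimum level, from 0 to 2 for white over brown precursor cells (Cd36 and Adipoq, lower in white), from 2 to 4 for bCAPs over bFAPLs and from 1 to 3 for wCAPs over bCAPs. Without the 1 glial cell high in Scd1, an alternative chosen after seeing the data, levels in brown glial cells went from 292 to 7.22 CPM for Fabp4, from 292 to 48.1 for Scd1, from 44.2 to 16.9 for Lpl, from 59.7 to 38.5 for Fasn, and from 6.63 and 13.3 to 0.0 for Cd36 and Adipoq. Among other alternatives chosen after seeing the data, all captured cells without those of 5 or more Adipoq UMIs left the count for white over brown cells at 0, and leaving out the few cells with the most Fabp4, Fabp5 or Adipoq gave the values printed beside those results. Of all other single log2 ratios, 278 of 338 stayed within their counting interval and 0 past 2-fold changed sign. No value is given for Acsl1 in the 4 white myeloid cells in G1, where it had no UMI.

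No paired analysis was possible because each depot is 1 library. Depth limits Cd36, Adipoq and Acsl1 most, and the values for 14 white myeloid cells and 15 differentiating wFAPLs rest on few cells. Cluster labels carried over to the other kept cells are less certain for wAPC 4, bAPC 3 and bAPC 5, of whose held-out labels 63.5% to 66.1% were returned.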

Other observations

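Among kept precursor cells thinned to 10000 UMIs, 6 white and 13 brown cells had an Adipoq UMI. By labels carried over 4 of the 6 lay in wCAPs and 8 of the 13 in bCAPs, with 0 in FAPLs of either depot. By the same labels wCAPs were 1504 of 4332 white precursor cells and wFAPLs 508. In brown, bCAPs were 826 of 5960 and bFAPLs 775. On 6 and 13 cells a count of 0 carries little weight, and the means below can rest on few cells. The cells with Adipoq had means of 10.7 and 11.9 UMIs of Lpl, against 4.06 and 3.59 in cells without Adipoq. For Fabp4 the means were 2.83 and 9.85 UMIs against 0.669 and 1.26. Scd2, at 4.83 and 4.23 UMIs against 3.79 and 3.99, differed little. Fabp5 was lower in white, at 2.17 against 4.90 UMIs, and higher in brown, at 6.15 against 5.13. Plin1, a coat protein of the mature droplet, had a UMI in 29 white and 60 brown captured cells, and Ucp1, the uncoupling protein of brown fat, in 6 white and 4 brown cells.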
